A study of Mus musculus with 6 samples.

Results

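The expression of 10 genes was followed in mouse leukaemia cells: 9 integrin subunit genes (Itga4, Itgb7, Itgb1, Itga5, Itga6, Itgae, Itgav, Itgb3 and Itga2b) and Vcam1, which encodes a ligand of α4 integrins. They were taken by symbol from the 33924 gene rows of a count table, and all 10 passed the filter on low counts that left 13406 tested genes. RNA sequencing had been carried out on 6 libraries of acute myeloid leukaemia cells, 3 derived from LSK cells (LSK 44, LSK 45 and LSK 46) and 3 derived from granulocyte-macrophage progenitors (GMP 5, GMP 11 and GMP 19). LSK cells are marrow cells that lack lineage markers, carry Sca-1 and Kit and include the haematopoietic stem cells, whereas GMP are committed to the myeloid lineage. In both groups the starting cells had received the MLL-AF9 fusion oncogene by retrovirus and had been expanded in culture. GFP-positive cells were then injected, with wild-type marrow cells as support, into C57BL/6 mice irradiated with 950 cGy. Leukaemia cells from the marrow of moribund recipients were kept in medium with 15% serum, 20 ng/mL SCF, 10 ng/mL IL-3 and 10 ng/mL IL-6. No age is given, and nothing in the labels tells if libraries within a group trace back to different mice or transductions, or if host and support cells were sorted away. P-values therefore reflect variation among these libraries only, and it may be technical.

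Integrins are cell surface receptors made of 1 alpha and 1 beta chain that bind matrix proteins or receptors on neighbouring cells and link them to the actin cytoskeleton. The α4 chain pairs with β1 in VLA-4, which binds VCAM1 and fibronectin, and with β7 in a receptor for MAdCAM-1 that also binds VCAM1. In bone marrow, VCAM1 on stromal and endothelial cells holds progenitors that carry VLA-4. The α5 and α6 chains pair with β1 in receptors for fibronectin and laminin, αE pairs with β7 in a receptor for E-cadherin, αv with several beta chains in receptors for vitronectin and osteopontin, and αIIb (CD41) with β3 in the fibrinogen receptor of megakaryocytes and platelets.

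The 10 genes were chosen by their measured counts in this same contrast between LSK-derived and GMP-derived libraries, so their values are given as a description, without p-values. A positive log2 fold change, from edgeR, means higher in LSK-derived libraries, and each carries an approximate standard error (SE) derived from the quasi-likelihood statistic. Expression is in CPM, read counts normalised to the TMM-scaled library size, as mean ± SD of the 3 libraries of a group. Itga4 and Itgb7 were both higher in the LSK-derived libraries, with the largest log2 fold changes after Vcam1 and Itga2b. Promoter sequences were available for 6 of the 10 genes, but not for Vcam1, Itga6, Itgae or Itgb3. Those of the 3 chains that make up the α4 receptors (Itga4, Itgb7 and Itgb1) and of Itga2b, which varied most between libraries, are shown. Each runs from 250 bases before to 50 bases after the gene's start in RefSeq on GRCm38.p6, at chr2:79255176-79255475 on the plus strand (Itga4), chr15:102231886-102232185 on the minus strand (Itgb7), chr8:128685404-128685703 on the plus strand (Itgb1) and chr11:102469834-102470133 on the minus strand (Itga2b). Capitals mark matches on either strand to the ETS core (GGAAGT), to the site of erythroid zinc finger factors (GATAA), to the RUNX site (TGTGGT), to the MEIS site (TGACAG) or to the SP1 box (GGGCGG), and no match overlapped another.
Itga4: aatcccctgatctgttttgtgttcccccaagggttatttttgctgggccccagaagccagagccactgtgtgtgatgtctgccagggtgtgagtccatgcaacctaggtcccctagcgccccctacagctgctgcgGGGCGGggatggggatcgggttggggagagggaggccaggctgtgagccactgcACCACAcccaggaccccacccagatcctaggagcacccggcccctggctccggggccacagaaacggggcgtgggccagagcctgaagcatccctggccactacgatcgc
Itgb7: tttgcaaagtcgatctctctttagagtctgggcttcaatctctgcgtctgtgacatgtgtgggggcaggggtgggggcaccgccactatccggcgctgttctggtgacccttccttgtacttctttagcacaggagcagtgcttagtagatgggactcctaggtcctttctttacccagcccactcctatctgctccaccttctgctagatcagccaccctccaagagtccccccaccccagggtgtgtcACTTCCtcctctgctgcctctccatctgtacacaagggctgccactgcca
Itgb1: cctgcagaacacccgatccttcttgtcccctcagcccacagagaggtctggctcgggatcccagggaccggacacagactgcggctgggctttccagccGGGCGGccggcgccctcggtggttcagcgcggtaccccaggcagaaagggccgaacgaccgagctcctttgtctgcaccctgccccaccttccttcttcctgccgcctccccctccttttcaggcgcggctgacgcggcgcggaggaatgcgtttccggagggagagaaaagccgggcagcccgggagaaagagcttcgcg
Itga2b: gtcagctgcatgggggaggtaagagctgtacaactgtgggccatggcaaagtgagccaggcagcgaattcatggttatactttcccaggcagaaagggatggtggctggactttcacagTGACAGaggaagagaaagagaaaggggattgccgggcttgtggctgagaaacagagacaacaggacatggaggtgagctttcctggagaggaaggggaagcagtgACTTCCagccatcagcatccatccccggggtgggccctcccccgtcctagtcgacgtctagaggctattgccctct

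The Itga4 window held 1 RUNX and 1 SP1 match, the Itgb7 window 1 ETS match, the Itgb1 window 1 SP1 match, and the Itga2b window 1 MEIS and 1 ETS match. The zinc finger site was in none of these windows. Among all 32851 promoter windows of this length, the ETS core was in 23.8%, the zinc finger site in 25.4%, the RUNX site in 16.8%, the MEIS site in 19.2% and the SP1 box in 35.7%. The Itgb1 window was 67.3% G or C with 27 CpG dinucleotides and the Itga4 window 64.3% with 10, whereas those of Itgb7 (56.3%, 5 CpG) and Itga2b (56.0%, 6 CpG) lay nearer the medians of all windows, 52.7% and 7 CpG.

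Itga4, the chain shared by both α4 receptors, was at 568, 692 and 855 CPM across LSK 44, LSK 45 and LSK 46, against 232, 306 and 231 CPM across GMP 5, GMP 11 and GMP 19. Every LSK-derived library lay above every GMP-derived one. The means were 705 ± 144 and 256 ± 43.2 CPM, a log2 fold change of 1.46 ± 0.18 (SE), or 2.75-fold. In bulk RNA, a larger share of cells that express a gene and more RNA per cell cannot be told apart. In the reference annotation 127 bases of Itga4 exon overlap Cerkl on the opposite strand. Cerkl had a mean of 6.00 ± 0.688 CPM among LSK-derived and 7.79 ± 0.691 CPM among GMP-derived libraries.

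Itgb7, the beta chain of α4β7 and αEβ7, was at 61.6, 52.2 and 79.6 CPM across LSK 44, LSK 45 and LSK 46, against 20.2, 20.6 and 18.3 CPM among the GMP-derived libraries. The groups again did not overlap, and LSK 46 was the highest library for both genes. The log2 fold change was 1.71 ± 0.16, or 3.28-fold, and the spread was 64.5 ± 13.9 CPM among LSK-derived against 19.7 ± 1.24 CPM among GMP-derived libraries. The ratio of Itga4 to Itgb7 within a library, per kilobase (kb) of exon, was 3.04 ± 0.562 in LSK-derived and 3.57 ± 0.471 in GMP-derived libraries, and these ranges overlapped.

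Itgb1, the beta chain of VLA-4, VLA-5 and VLA-6, differed little. It was at 332, 365 and 339 CPM across LSK 44, LSK 45 and LSK 46, against 337, 316 and 313 CPM across GMP 5, GMP 11 and GMP 19. The groups overlapped, with a log2 fold change of 0.10 ± 0.07. Because Itgb7 differed and Itgb1 hardly did, the ratio of Itgb7 to Itgb1 per kb was 0.264, 0.203 and 0.333 in the LSK-derived libraries and 0.0852, 0.0928 and 0.0830 in the GMP-derived ones. A ratio within a library does not depend on library scaling.

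**Figure D1:**
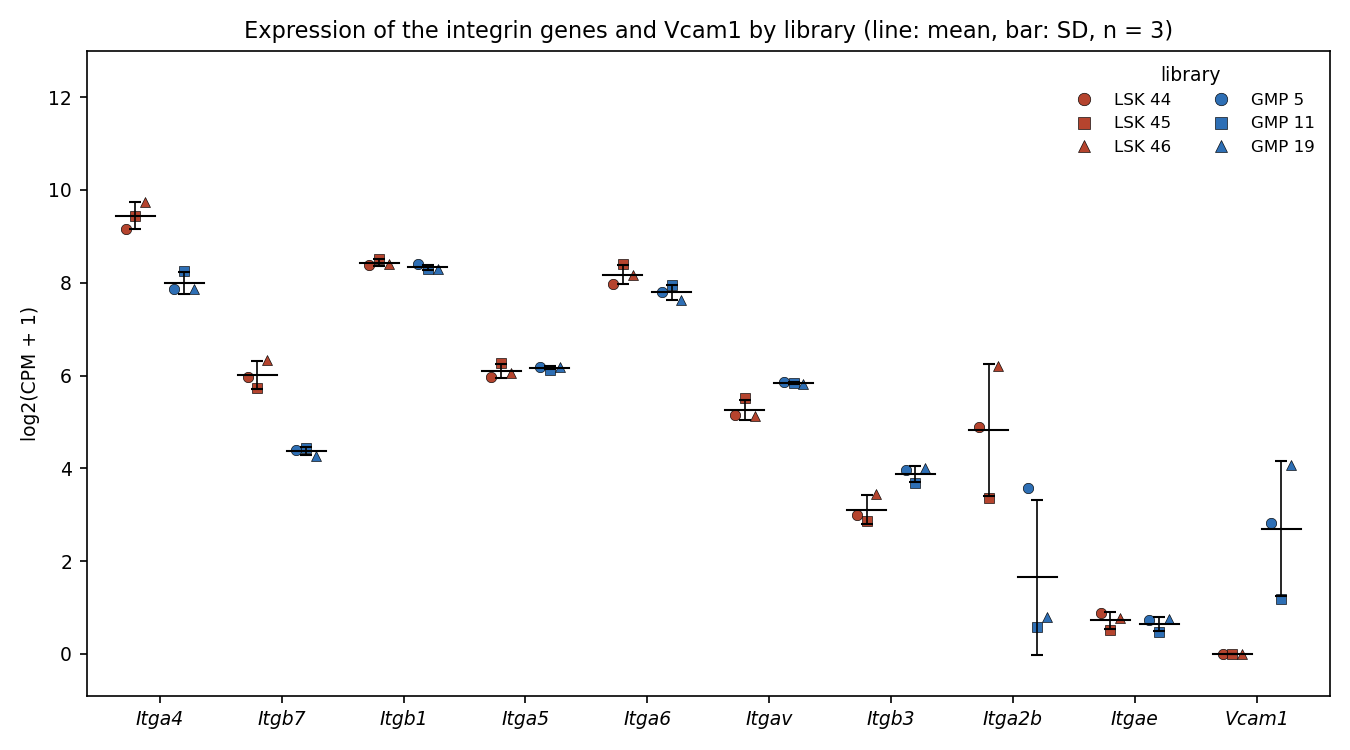
Expression of the 9 integrin genes and Vcam1 as log2(CPM + 1), 1 point per library, with LSK-derived libraries left (red) and GMP-derived libraries right (blue); horizontal lines are means and bars SD of 3 libraries. Itga4 and Itgb7 stand higher in all LSK-derived libraries, Vcam1 is at 0 there, and Itga2b varies most.

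Of the fibronectin and laminin receptor chains, Itga5 was at 61.9, 75.6 and 65.8 CPM among LSK-derived and at 71.6, 68.9 and 72.1 CPM among GMP-derived libraries. The groups overlapped (log2 fold change -0.06 ± 0.09). Itga6, the laminin-binding chain found on stem cells of several tissues, was at 249, 335 and 286 CPM among LSK-derived against 221, 246 and 197 CPM among GMP-derived libraries. These groups did not overlap, LSK 44 lying just above GMP 11, and the log2 fold change was 0.39 ± 0.13. The ratio of Itga4 to Itga5 per kb was 4.69 ± 0.993 in LSK-derived and 1.63 ± 0.318 in GMP-derived libraries, and that of Itga4 to Itga6 was 1.09 ± 0.216 and 0.515 ± 0.0449.

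The chains of the vitronectin receptor αvβ3 went the other way. Itgav was at 34.7, 44.7 and 33.9 CPM among the LSK-derived libraries, against 57.4, 56.1 and 55.6 CPM among the GMP-derived ones, without overlap (log2 fold change -0.58 ± 0.12). Itgb3, which also pairs with αIIb, was at 7.02, 6.32 and 9.95 CPM among the LSK-derived libraries, against 14.6, 11.9 and 15.0 CPM among the GMP-derived ones, again without overlap (log2 fold change -0.83 ± 0.20). Their ratio within a library, Itgav to Itgb3 per kb, was 4.21 ± 1.51 in LSK-derived and 3.37 ± 0.437 in GMP-derived libraries, with overlapping ranges.

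Itga2b, the CD41 gene and partner of Itgb3, varied most among libraries of 1 group. It was at 28.7, 9.30 and 73.1 CPM across LSK 44, LSK 45 and LSK 46, against 10.9, 0.505 and 0.733 CPM across GMP 5, GMP 11 and GMP 19. GMP 5 was above LSK 45, so the groups overlapped. The log2 fold change was 3.24 ± 1.33, and it was 5.88 without GMP 5 and 2.26 without LSK 46. Within LSK-derived libraries the highest value was 7.86-fold the lowest, compared with 1.51-fold for Itga4 and 1.10-fold for Itgb1. Itga2b exceeded Itgb3 per kb in each LSK-derived library (ratio 6.89, 2.48 and 12.4) and in GMP 5 (1.25), but not in GMP 11 (0.0713) or GMP 19 (0.0820).

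Markers of megakaryocytes and of mast cells were looked up beside Itga2b. The marker lists here and below were chosen with earlier results of these data known. Single markers were named without a rule fixed beforehand, so their p-values are not independent of that choice. Among all tested genes, 11.8% were called higher and 13.9% lower in LSK-derived libraries. Of 14 megakaryocyte and platelet markers, 5 were tested and 1 was higher, and their summed level of 107 to 165 CPM among LSK-derived and 146 to 319 CPM among GMP-derived libraries was mostly Thbs1. Without Thbs1 the sum was 15.9, 7.38 and 27.8 CPM across LSK 44, LSK 45 and LSK 46, in the order of Itga2b, against 2.70, 3.38 and 4.93 CPM among the GMP-derived libraries, where GMP 5 was lowest. Of the 14 markers, 4 had 0 counts in all GMP-derived libraries. The 12 mast cell and basophil markers summed to 114 to 160 CPM among LSK-derived libraries and to 343, 94.1 and 99.6 CPM across GMP 5, GMP 11 and GMP 19. The mast cell protease gene Cpa3 was at 88.5 CPM in GMP 5 and at most 2.87 CPM in any other library, and was not called (adjusted p = 0.185). Hdc, the histidine decarboxylase gene and the largest of the list in GMP 5, was lower in LSK-derived libraries (8.65, 12.9 and 8.91 CPM, against 185, 55.9 and 64.4 CPM across GMP 5, GMP 11 and GMP 19, adjusted p = 0.00742). The basophil protease gene Mcpt8 was higher (30.8, 31.6 and 29.4 CPM, against 14.6, 13.9 and 10.9 CPM, adjusted p = 0.00153). The transcription factor gene Gata2 was at 64.5, 60.1 and 108 CPM across LSK 44, LSK 45 and LSK 46, against 45.6, 13.8 and 12.0 CPM across GMP 5, GMP 11 and GMP 19 (adjusted p = 0.0699). Tpsab1, Mcpt4 and Fcer1a were at most 0.0833 CPM throughout, and 6 of the 12 markers had 0 counts in all GMP-derived libraries. The part of these cell types in the Itga2b values was not tested.

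Itgae, the CD103 gene, was near the limit of detection. It was at 0.847, 0.432 and 0.708 CPM among LSK-derived libraries and 0.656, 0.386 and 0.674 CPM among GMP-derived ones, from 42 counts and 52 counts in all. The groups overlapped, and the log2 fold change of 0.19 ± 0.38 was -0.03 without GMP 11 and 0.44 without LSK 45. Itgae was thus 0.00719 ± 0.00209 of Itgb7 per kb in LSK-derived and 0.0205 ± 0.00662 in GMP-derived libraries. Gsg2, the tested gene that follows it by start position in the reference, encodes the kinase haspin and was at 37.0 ± 4.40 and 36.2 ± 0.844 CPM.

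Vcam1 had 0 counts in all 3 LSK-derived libraries, against 149, 43 and 542 counts in GMP 5, GMP 11 and GMP 19. A count of 0 allows up to 3 counts, which is 0.181 CPM in LSK 44, 0.118 CPM in LSK 45 and 0.125 CPM in LSK 46, and covers counting error only. Levels in the GMP-derived libraries were 6.11, 1.28 and 15.9 CPM, so the lowest lay well above those limits. The mean of 7.76 ± 7.45 CPM makes Vcam1 at least 171-fold lower in the LSK-derived libraries, measured against 3 counts over that group. This bound was 81.2-fold without GMP 19, 105-fold without LSK 45 and 109-fold without LSK 46, and between 128-fold and 242-fold without any other library. The spread within GMP-derived libraries was wide, with GMP 19 at 12.4-fold GMP 11.

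Cells that carry VCAM1 in marrow include stroma, endothelium and resident macrophages, and their markers were looked up beside it. The 16 stromal and endothelial markers summed to 80.8 to 104 CPM among LSK-derived and 47.3 to 143 CPM among GMP-derived libraries, with Spp1 the largest in all libraries but GMP 5, where it was Pdgfrb. Of the 16, 2 had 0 counts in all LSK-derived and 3 in all GMP-derived libraries. Col1a2 had 0 counts in all 6 libraries, Col3a1 and Pdgfra had 0 in the GMP-derived ones, and Cxcl12, Cdh5, Kdr and Tek were at or below 0.323 CPM there. Col1a1, a collagen gene, was at 0, 0.0392 and 0.0417 CPM across LSK 44, LSK 45 and LSK 46, against 0.0410, 0.237 and 1.47 CPM across GMP 5, GMP 11 and GMP 19. Pdgfrb was lower in LSK-derived libraries (2.48, 4.87 and 0.541 CPM, against 36.4, 14.0 and 30.3 CPM among GMP-derived ones, adjusted p = 0.0206), as was Acta2 (0.302, 0.314 and 0.458 CPM, against 5.16, 3.65 and 5.04 CPM, adjusted p = 0.000657). Sele, the E-selectin gene of endothelium, was higher (1.21, 1.10 and 0.958 CPM, against 0.123, 0.237 and 0.440 CPM, adjusted p = 0.0171). The 14 macrophage markers summed to 17.9 to 53.2 CPM among LSK-derived and 41.7 to 164 CPM among GMP-derived libraries, mostly from Emr1, the F4/80 gene. Cd5l, Timd4, Marco, C1qa and C1qc were at most 0.0587 CPM for any GMP-derived library. Of the called markers, Slc40a1, the iron exporter gene, was lower, at 0.907, 0.746 and 0.708 CPM across LSK 44, LSK 45 and LSK 46, against 4.06, 9.71 and 25.7 CPM across GMP 5, GMP 11 and GMP 19 (adjusted p = 0.0112). The other 3 were higher in the LSK-derived libraries. They were the receptor kinase genes Axl (0.665, 0.589 and 0.875 CPM, against 0.0410, 0.119 and 0.117 CPM, adjusted p = 0.00496) and Mertk (0.423, 1.73 and 0.666 CPM, against 0, 0.0594 and 0.235 CPM, adjusted p = 0.0416), and the mannose receptor gene Mrc1 (1.33, 2.87 and 1.54 CPM, against 0.369, 0.801 and 0.909 CPM, adjusted p = 0.0494). The part of these cell types in the Vcam1 values was not tested.

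Counted by edgeR's quasi-likelihood test at an adjusted p below 0.05, 5 of the 10 genes were called, 2 of them higher (Itga4 and Itgb7) and 3 lower (Itgav, Itgb3 and Vcam1), where 25.7% of all tested genes were called (11.8% higher and 13.9% lower). The groups did not overlap for 6 of the 10, 3 with the LSK-derived libraries above and 3 with them below, where they did not overlap in 45.4% of tested genes (22.5% above and 22.8% below). Nothing is read from these counts, since the genes were chosen with the contrast known. In the 6 fits that left out 1 library, 2 or 3 genes were called higher, and the count of lower genes ran between 0 (without LSK 44) and 3 (without GMP 11).

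**Figure D2:**
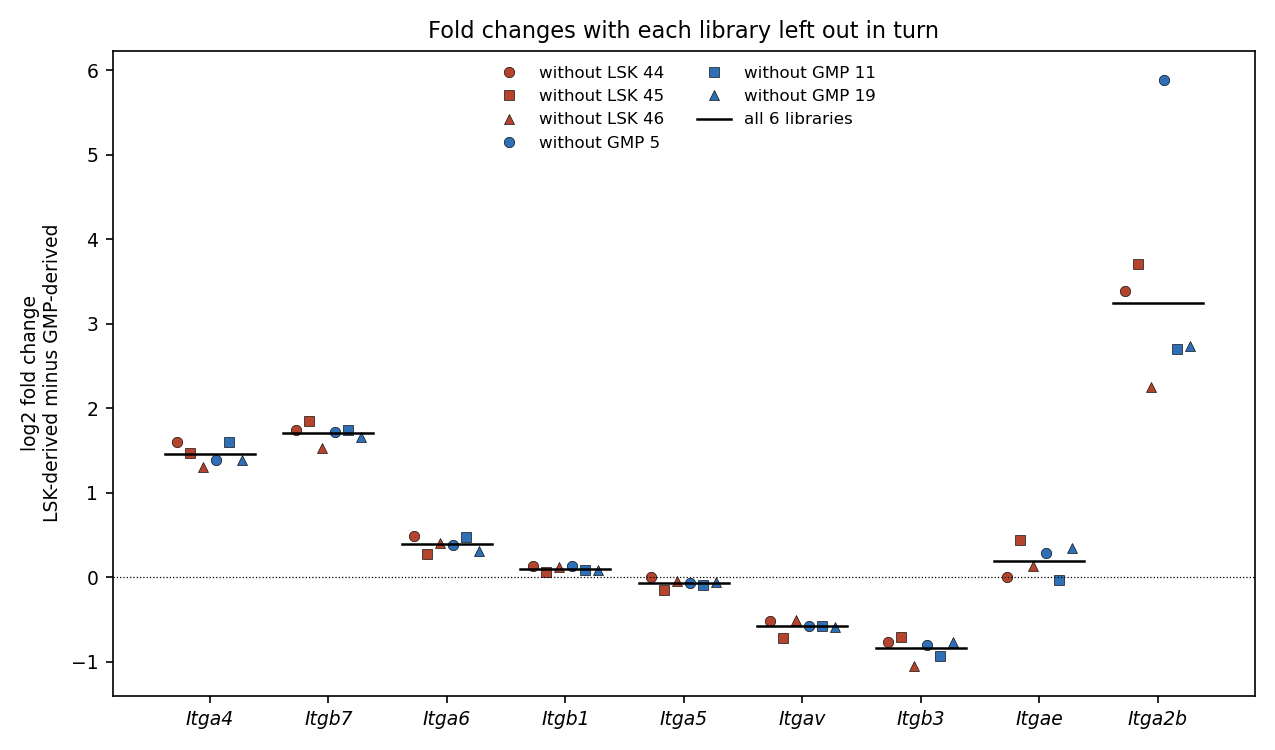
Log2 fold change (LSK-derived minus GMP-derived) of the 9 integrin genes with each library left out in turn, 1 point per fit; black lines give the fit on all 6 libraries. The points of Itga4 lie between 1.30 and 1.61 and those of Itgb7 between 1.53 and 1.85, while Itga2b moves between 2.26 and 5.88.

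Per kilobase of exon, with lengths from the GENCODE M21 annotation, the order of levels differed between the groups. In LSK-derived libraries Itgb1 led with 90.5 ± 4.52 CPM per kb, followed by Itga4 (72.2 ± 14.7) and Itga6 (66.6 ± 9.91), and the ranges of Itgb1 and Itga4 and of Itga4 and Itga6 overlapped. Below them were Itgb7 (24.0 ± 5.19), Itga5 (15.5 ± 1.62), Itga2b (10.8 ± 9.51), Itgav (5.35 ± 0.855), Itgb3 (1.34 ± 0.334) and Itgae (0.172 ± 0.0550), where Itga2b overlapped both of its neighbours in the order. In GMP-derived libraries Itgb1 again led with 84.3 ± 3.40 CPM per kb, followed without overlap by Itga6 (50.8 ± 5.59), Itga4 (26.2 ± 4.43), Itga5 (16.2 ± 0.401), Itgav (7.99 ± 0.127), Itgb7 (7.33 ± 0.463) and then Itgb3. Vcam1 (1.56 ± 1.49), Itga2b (1.18 ± 1.73) and Itgae (0.149 ± 0.0420) came last, and each of these 3 overlapped the one before it.

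As a share of the summed CPM per kb of the 6 alpha genes, Itga4 made up 42.1% in LSK-derived and 25.5% in GMP-derived libraries, and Itga6 39.3% ± 5.23 and 49.5% ± 1.11 (mean, and SD where given, n = 3 each). Itga5 made up 9.17% ± 1.26 and 15.9% ± 1.76, and Itgav 3.18% ± 0.623 and 7.83% ± 0.661. Among the 3 beta genes, Itgb1 made up 78.2% ± 4.20 in LSK-derived and 89.7% ± 0.162 in GMP-derived libraries, and Itgb7 20.7% ± 3.95 and 7.80% ± 0.448. None of these 6 shares overlapped between the groups, but shares of 1 sum depend on each other and are not separate results. More Itga4 or Itgb7 alone lowers the other shares. Itga5 had a lower share in LSK-derived libraries although its CPM overlapped (67.8 ± 7.09 and 70.9 ± 1.76). The share of Itga6 was lower there although its CPM was higher (290 ± 43.2 against 222 ± 24.4).

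**Figure D3:**
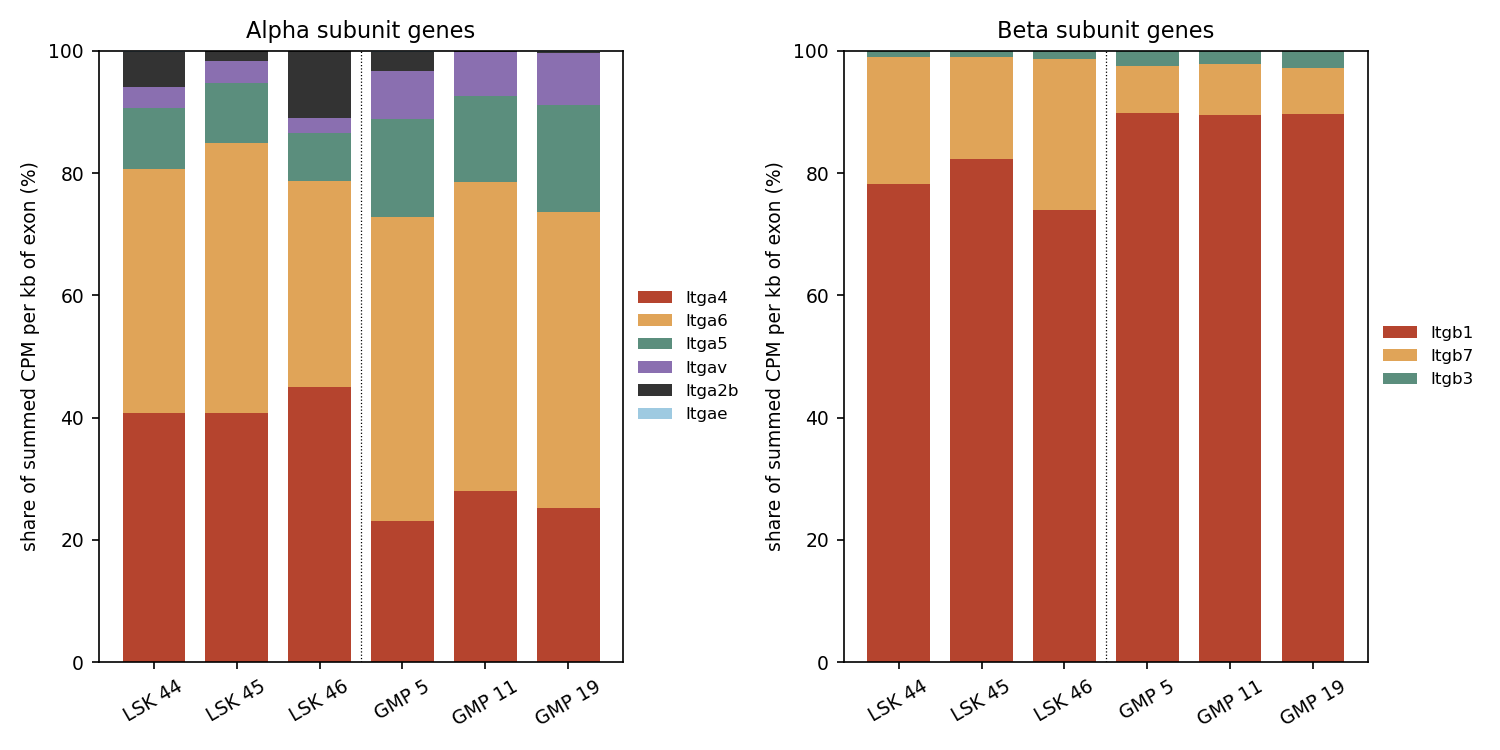
Share of each gene in the summed CPM per kb of exon of the 6 alpha and the 3 beta subunit genes, in percent, 1 bar per library with the LSK-derived libraries left of the dotted line. Itga4 takes at least 40.7% of the alpha sum in LSK-derived and 23.2% to 28.1% in GMP-derived libraries, and Itgb7 16.7% to 24.6% and 7.45% to 8.31% of the beta sum.

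The lists here and below were chosen with earlier results of these data known, so their p-values are not independent of that choice. First, the remaining integrin subunits were tested in the same fit. Of 18 such genes 10 were tested, of which 3 were lower in LSK-derived libraries, none was higher and 7 were not called, with a median log2 fold change of -0.68 against 0.01 over all tested genes. DESeq2, limma voom, the fit with no filter and that without GMP 19 each called 1 higher. Itgb5, a further partner of αv, was at 32.8, 56.6 and 22.7 CPM among LSK-derived against 107, 93.6 and 175 CPM among GMP-derived ones (log2 fold change -1.74 ± 0.39, adjusted p = 0.0219), and its call was lost without LSK 44, LSK 46 or GMP 19 (adjusted p up to 0.0851) and with no filter (0.0782). Of the other αv partners on this list, Itgb6 had 0 counts in all libraries and Itgb8 was at most 0.0297 CPM. The other lower genes were Itgb2 (132 ± 15.0 against 469 ± 85.7 CPM, adjusted p = 0.000699) and Itgal (56.9 ± 6.97 against 120 ± 15.5 CPM, adjusted p = 0.00199), the chains of LFA-1, which binds ICAM proteins on leukocytes and endothelium. Itga1, a collagen-binding partner of β1, was at 26.9, 49.7 and 18.9 CPM among LSK-derived against 1.97, 5.85 and 13.5 CPM among GMP-derived libraries and was not called (log2 fold change 2.15 ± 0.69, adjusted p = 0.0655), but it was called by DESeq2 (0.0312), by limma voom (0.0422) and without GMP 19 (0.0444). Itgam, the Mac-1 alpha chain of myeloid cells, was at 193 ± 102 and 301 ± 107 CPM (adjusted p = 0.293), and Itgb4, the β4 partner of α6, at 0.735 ± 0.416 and 0.522 ± 0.221 CPM (adjusted p = 0.577). Itga9, whose product also binds VCAM1, was too low to be tested, at most 0.292 CPM in any library.

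Integrin ligands were called in both directions. Of 50 listed genes 24 were tested, of which 8 were higher in LSK-derived libraries, 4 were lower and 12 were not called, with a median log2 fold change of 0.49. Cdh1, which encodes the αEβ7 ligand E-cadherin, was at 9.44, 25.1 and 5.91 CPM among LSK-derived against 0.123, 0.416 and 0.264 CPM among GMP-derived ones (log2 fold change 5.59 ± 0.74, adjusted p = 0.00403). The laminin chain genes Lama5 (23.7 ± 5.81 against 2.44 ± 0.403 CPM, adjusted p = 0.000506) and Lamc1 (29.8 ± 1.87 against 9.15 ± 2.15 CPM, adjusted p = 0.00159) were higher, as was Vwf, which encodes von Willebrand factor (3.66 ± 0.582 against 0.512 ± 0.269 CPM, adjusted p = 0.00342). Among the lower ones was the growth factor gene Tgfb2 (0.223 ± 0.0952 against 2.34 ± 1.44 CPM, adjusted p = 0.00939). Icam1, the LFA-1 ligand (14.2 ± 3.37 against 36.3 ± 4.84 CPM, adjusted p = 0.00364), was also lower. So was the disintegrin gene Adam15 (43.5 ± 2.84 against 67.9 ± 3.45 CPM, adjusted p = 0.00258). Fn1, the fibronectin gene, was at 1.88, 22.0 and 2.83 CPM among LSK-derived and 0.0410, 0.742 and 1.79 CPM among GMP-derived libraries and was not called (adjusted p = 0.104). Spp1, which encodes the α4 and αv ligand osteopontin, was at 86.9, 70.7 and 61.4 CPM and at 13.4, 27.8 and 98.0 CPM and was not called (adjusted p = 0.529), but it was called higher without GMP 19 (log2 fold change 1.82, adjusted p = 0.0335). Madcam1 had 0 counts in all libraries. The abundant genes Tgfb1 (240.5 ± 23.4 and 234 ± 22.3 CPM) and Bsg (366 ± 35.6 and 341 ± 37.9 CPM) were not called.

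**Figure D4:**
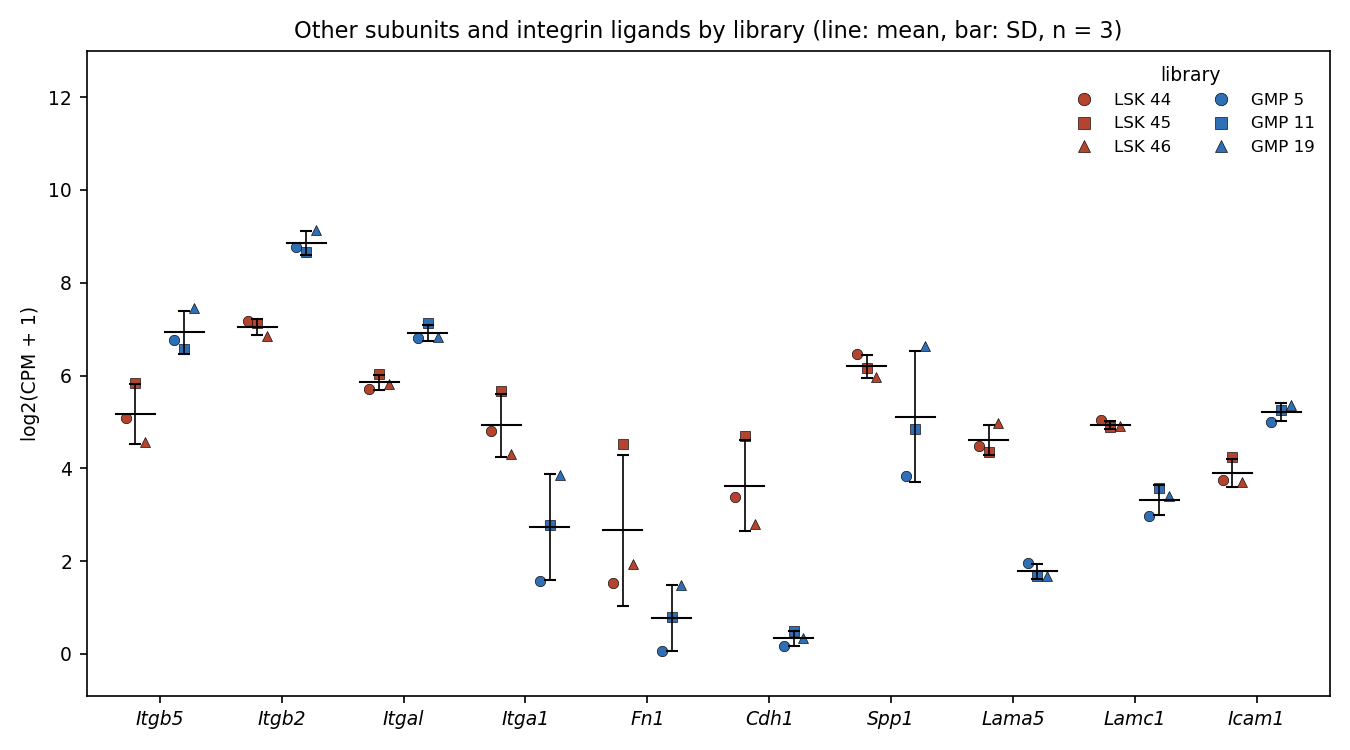
Expression of 10 other integrin subunit and ligand genes as log2(CPM + 1), 1 point per library, with LSK-derived libraries left (red) and GMP-derived libraries right (blue); horizontal lines are means and bars SD of 3 libraries. Itgb5, Itgb2, Itgal and Icam1 are lower and Cdh1, Lama5 and Lamc1 higher in all LSK-derived libraries. Itga1 and Fn1 also stand higher in all of them but were not called, while Spp1 overlaps.

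Regulators of integrin activation were called in both directions. Of 33 genes 30 were tested, of which 3 were higher in LSK-derived libraries, 8 were lower and 19 were not called, with a median log2 fold change of -0.18. The lower count was 5 without LSK 44 and 4 without LSK 46, and the higher count 5 without LSK 45 and with DESeq2. The higher genes were Rapgef3, an exchange factor for RAP1 (17.2 ± 2.25 against 7.96 ± 0.913 CPM, adjusted p = 0.00339), Rasgrp2, the CalDAG-GEFI gene that also activates RAP1 (211 ± 13.9 against 142 ± 18.2 CPM, adjusted p = 0.0109), and Tln1, the talin that binds beta chain tails (803 ± 91.3 against 610.0 ± 73.3 CPM, adjusted p = 0.0470). The Tln1 call was lost in 4 of the 6 leave-one-out fits (adjusted p up to 0.150), with limma voom (0.0501) and with no filter (0.0518). The RAP1 genes themselves were lower, Rap1a with a log2 fold change of -0.43 (adjusted p = 0.0143) and Rap1b with -0.35 (0.00946), both named after their values were seen. Tns1, a tensin (15.2 ± 6.01 against 59.1 ± 23.9 CPM, adjusted p = 0.0144), Rap1gap2, which inactivates RAP1 (4.57 ± 0.559 against 13.7 ± 4.45 CPM, adjusted p = 0.00751), Skap2, an adaptor in integrin activation (249 ± 23.8 against 514 ± 38.4 CPM, adjusted p = 0.000961), and Tns3 (52.7 ± 4.77 against 74.8 ± 8.85 CPM, adjusted p = 0.0170) were lower. The call of Tns1 was lost without LSK 44 or LSK 46 and that of Tns3 without LSK 46 (adjusted p up to 0.0604 and 0.0700). Fermt3, the kindlin of blood cells (329 ± 20.3 and 376 ± 64.8 CPM), and Flna, the filamin that competes with talin (means 879 and 818 CPM), were not called.

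Of the adhesion complex and signalling genes, 52 were listed and 45 tested. Of these, 5 were higher in LSK-derived libraries, 7 were lower and 33 were not called, with a median log2 fold change of 0.13. The higher count was 1 without LSK 44, 2 without LSK 46 or GMP 11, 3 without GMP 19 and 8 with DESeq2, and the lower count 4 without LSK 44 or LSK 46. Parvb, a parvin of the complex with ILK and PINCH, was at 24.8 ± 3.92 against 94.7 ± 19.1 CPM (log2 fold change -1.94 ± 0.18, adjusted p = 0.00116), and Rsu1, which binds PINCH, at 86.0 ± 5.30 against 158 ± 29.8 CPM (adjusted p = 0.00634), whereas the PINCH gene Lims1 was higher (206 ± 38.6 against 147 ± 2.31 CPM, adjusted p = 0.0321). Lpxn, the leukocyte relative of paxillin, was lower (11.5 ± 1.99 against 35.0 ± 12.1 CPM, adjusted p = 0.00959), as was the docking protein gene Nedd9 (20.4 ± 4.53 against 34.1 ± 6.50 CPM, adjusted p = 0.0348). The adaptor genes Grb2 (299 ± 32.8 against 218 ± 12.7 CPM, adjusted p = 0.0144), Git1 (84.5 ± 8.07 against 62.4 ± 5.41 CPM, adjusted p = 0.0197) and Crk (128 ± 6.13 against 105 ± 8.28 CPM, adjusted p = 0.0365) were higher. The calls of Lims1, Nedd9, Crk and Git1 were each lost in 3 or more leave-one-out fits (adjusted p up to 0.0847, 0.113, 0.127 and 0.0673). Parvg (602 ± 29.6 and 554 ± 23.1 CPM) and Cdc42 (579 ± 18.4 and 615 ± 11.6 CPM) were not called. Ilk, the gene of ILK, was too low to be tested, at most 0.167 CPM in any library, and was named after its values were seen. The annotation used for counting was not stated, so absence of Ilk RNA is not read from these counts.

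Of 21 tetraspanins and membrane partners of integrins 16 were tested, and 2 were higher in LSK-derived libraries, 3 were lower and 11 were not called, with a median log2 fold change of 0.01. Without LSK 46, 1 was higher. Cd44, the hyaluronan receptor gene (247 ± 31.6 against 147 ± 12.9 CPM, adjusted p = 0.00515), and Cd151, the tetraspanin that associates with laminin-binding integrins (23.7 ± 1.64 against 16.8 ± 0.961 CPM, adjusted p = 0.0125), were higher. The tetraspanin genes Cd82 (26.6 ± 2.92 against 51.8 ± 8.18 CPM, adjusted p = 0.00413), Tspan32 (107 ± 5.60 against 162 ± 20.5 CPM, adjusted p = 0.00725) and Cd37 (105 ± 12.2 against 162 ± 26.3 CPM, adjusted p = 0.0171) were lower. Cd151 lost its call without LSK 46 (adjusted p = 0.0547), and Cd37 without LSK 44 or LSK 46 (up to 0.0707). Cd47 (630.3 ± 47.5 and 716 ± 31.0 CPM) and Cd53 (321 ± 55.5 and 412 ± 61.6 CPM) were not called, Cd53 being called lower without LSK 45 (adjusted p = 0.0483). Over all 5 lists, 18 of 125 tested genes were higher (14.4%) and 25 were lower (20.0%), beside 11.8% and 13.9% of all tested genes. Without LSK 46 the counts were 11 and 16.

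**Figure D5:**
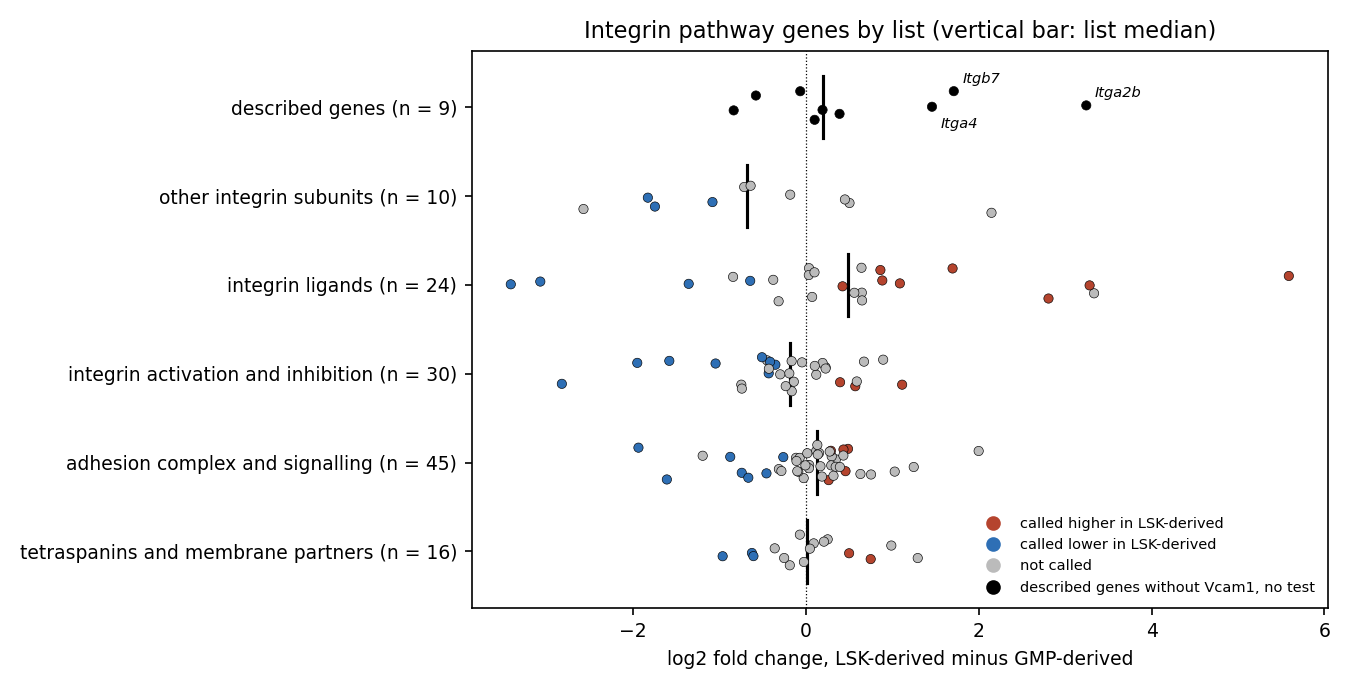
Log2 fold change (LSK-derived minus GMP-derived) of the described integrin genes without Vcam1 (black, no test) and of the tested genes of 5 integrin pathway lists, 1 point per gene; red and blue mark genes called higher and lower in LSK-derived libraries and vertical bars list medians. The other integrin subunits hold 3 blue points and no red one, and the ligands 8 red and 4 blue points.

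In the RefSeq gene order by start position on GRCm38.p6, the tested genes just before and after each of the 10 genes were called in 4 of 20 cases, 3 higher and 1 lower. Of all tested genes 25.7% were called, 11.8% higher and 13.9% lower, so nothing about these loci is read from that count. Both neighbours of Itga4, Ube2e3 and Cerkl, were not called (adjusted p = 0.875 and 0.130), nor were those of Vcam1, Extl2 and Cdc14a (0.308 and 0.443). Next to Itgav, which was lower in LSK-derived libraries, Calcrl was higher (126 ± 16.7 against 22.7 ± 2.28 CPM, log2 fold change 2.47, adjusted p = 0.000267). Zfp740 next to Itgb7 (122 ± 8.03 against 89.1 ± 4.20 CPM) and Gpatch8 next to Itga2b (89.8 ± 0.587 against 76.0 ± 1.32 CPM) were also higher, and the gene model Gm1631 next to Itga6 was lower (0.390 ± 0.0818 against 2.73 ± 0.708 CPM).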

How the data were processed

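RNA from 6 mouse leukaemia libraries was sequenced after TRIzol extraction and TruSeq RNA library preparation, per the labels' protocols. The authors deposited raw read counts per gene symbol, 1 column per library. Per the submitters' processing notes, which give no roles, the build was mm9 and the tools included HTSeq 0.6.1, STAR 2.4 and DESeq2. Annotation and strand setting were not stated, so overlapping genes on opposite strands cannot be told apart. Total counts ran from 16640929 to 33885428. Depth limits Itgae, with 42 counts and 52 counts per group, and Vcam1, with 0 counts in the LSK-derived group.

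Genes were filtered with filterByExpr, scaled by TMM and tested with glmQLFit (robust) and glmQLFTest in edgeR 4.0.16 (R 4.3.3), without covariates. Benjamini-Hochberg adjustment covered all 13406 tested genes, and a call was an adjusted p below 0.05. The SE is the size of the log2 fold change over the root of its F statistic. CPM per kb used union exon lengths of GENCODE M21, which is on another build than mm9. Its lengths served for levels only, and promoter coordinates are those of RefSeq on GRCm38.p6. The fits were tested on simulated counts. Alternatives were DESeq2 1.42.0 with its own filtering, DESeq2 size factors, limma 3.58.1 voom, no filter, and leaving out each library.

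The 10 genes and all lists (5 pathway lists and 9 marker lists) were chosen with earlier results of these data known. Genes named from a pathway list were up to 4 called genes per direction with the largest change, given 1 CPM or more on average in the higher group, up to 2 abundant genes that were not called, and 9 partners and ligands fixed by name. For each of Itga4 and Vcam1 the 3 tested genes with the smallest root mean square difference of centred log2(CPM + 1) profiles were also named. The list of adhesion genes held Syk, and the myeloid markers Spi1, which were not analysed here. Some genes that these rules or lists include are not reported here.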

Additional observations from a re-analysis of the deposited data

How the results depend on the processing

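No paired analysis was possible because the 2 groups share no replicate number. With all alternatives, the log2 fold changes of the 10 genes kept their sign except that of Itgae without GMP 11 (-0.03). Vcam1 moved to -7.75 with limma voom and -9.51 without GMP 19, from a fitted -10.68 that is no bound. Without a library, 1750 to 3467 of all tested genes were called (3444 with all libraries; 1830 without LSK 44 and 1750 without LSK 46), 770 to 1523 higher (1577) and 973 to 1944 lower (1867). DESeq2 called 4286 and limma voom 3338. Over all 5 pathway lists, 27 to 45 genes were called without a library, 11 to 19 higher and 16 to 26 lower. By list, the ranges without a library were 0 to 1 higher and 2 to 4 lower for other integrin subunits, 6 to 9 higher and 4 lower for ligands, 2 to 5 higher and 4 to 9 lower for activation, 1 to 5 higher and 4 to 7 lower for adhesion complexes, and 1 to 3 higher and 2 to 4 lower for membrane partners. Among other integrin subunits, 1 was called higher by DESeq2, 1 by limma voom and 1 with no filter, where none was otherwise. DESeq2 called 5 activation genes and 8 adhesion complex genes higher, and 27 over all lists. The cause of these shifts was not tested. Over the refits of the 44 named pathway genes, 403 stayed on the same side of the threshold, 32 lost a call and 5 gained one. Direction was compared only where a fit called the gene.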

Other observations

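Of the genes with a pattern like that of Itga4 over the 6 libraries, the nearest was Hdac7, a class II histone deacetylase gene, at 81.9, 91.2 and 112 CPM across LSK 44, LSK 45 and LSK 46 against 29.8, 42.7 and 34.4 CPM across GMP 5, GMP 11 and GMP 19. Its centred log2(CPM + 1) profile differed from that of Itga4 by a root mean square of 0.0815, among 12242 candidate genes. The next were Repin1 (0.113) and Lzts2 (0.115). Nearest to Vcam1 were the vomeronasal receptor gene Vmn2r96 (0.430), the glycine receptor gene Glra3 (0.505) and the plexin gene Plxnb3 (0.514). Vmn2r96 was at 0, 0.0392 and 0.0417 CPM among the LSK-derived libraries and 3.48, 1.99 and 8.59 CPM among the GMP-derived ones.

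The marker lists of other cell types gave these values, beside 11.8% of all tested genes called higher and 13.9% called lower. The 11 myeloid markers analysed were all tested and summed to 3608 to 5154 CPM among LSK-derived and 4054 to 7182 CPM among GMP-derived libraries, with 1 higher and 4 lower. Of 7 LSK markers 5 were tested and 4 were higher, with sums of 465 to 577 and 203 to 271 CPM. Kit, which is also on the myeloid list, was the largest in the LSK-derived libraries and GMP 19, and Meis1 in GMP 5 and GMP 11. The called gene Ly6a was at most 2.94 CPM in any library. The 13 dendritic cell markers summed to 69.9 to 105 CPM and 19.1 to 40.5 CPM, with 3 of 7 tested higher. The 12 T and NK cell markers summed to 23.8 to 38.3 CPM and 11.1 to 70.6 CPM, with Cd28 the largest in all libraries but GMP 5, where it was Lck, and with Cd3e and Cd8b1 at 0 throughout. The 9 B cell markers summed to 15.4 to 22.2 CPM and 5.16 to 16.7 CPM, with 1 higher and 2 lower of 4 tested, and Pax5 and Ms4a1 at 0 throughout. Of the lists set beside Itga2b and Vcam1, 1 of 6 tested mast cell markers was higher and 1 lower, 1 of 6 stromal markers was higher and 2 lower, and 3 of 6 macrophage markers were higher and 1 lower. Cd28 itself was at 16.9, 31.2 and 21.5 CPM among LSK-derived and 3.85, 63.4 and 22.9 CPM among GMP-derived libraries.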
